A study of Arabidopsis thaliana with 7 samples.

Results

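The 221 peaks described here are sites of CCA1 that lie inside transcribed genes of Arabidopsis thaliana. They were taken from 2 annotated lists of chromatin immunoprecipitation sequencing (ChIP-seq) peaks as every peak whose deposited annotation begins with intron, exon, 5' UTR or 3' UTR. The lists hold 3040 peaks in all, and the members are 98 of 1433 peaks in continuous light (LL) and 123 of 1607 in light-dark cycles (LD). CCA1 carried a green fluorescent protein (GFP) tag and was expressed from the CCA1 promoter in plants of the WS-2 ecotype, in every group. Whole 14-day-old seedlings that had been entrained to 12 h of light and 12 h of dark were collected at zeitgeber time 2, with 3 libraries in LL and 2 in LD. Chromatin was fixed with 1% formaldehyde for 20 min and precipitated with an antibody against GFP, beside IgG and input controls, so the sites are those of all cell types of the seedling together. The libraries of a regime were pooled into 1 list, which leaves no spread between replicates, and no difference between LL and LD was tested.

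CCA1, a DNA-binding protein of the MYB-related family, belongs to the circadian clock of plants. Its level is high around dawn, and it is known to repress genes of the evening through a short DNA element, the evening element, that is usually found in promoters. Introns, exons and untranslated regions (UTRs) can also hold binding sites of transcription factors, and first introns of plant genes are known to hold sequences that raise expression.

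Score, fold over control, class and gene assignment of each peak are the authors' own values, and coordinates are those of the TAIR10 build in the files. The score is the one given by the peak caller and follows the number of tags (sequenced fragments) in the peak. Scores were ranked within a list, and the LL and LD scores of a site are given side by side as description only, since the LD list runs higher throughout. Intervals of shares are 95% Wilson intervals, those of tags are exact 95% Poisson intervals, and all of them cover counting error only. The gene named in the annotation is called the host gene.

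Members made up 6.84% of the LL list (interval 5.64 to 8.26%) and 7.65% of the LD list (6.45 to 9.06%). Introns held 55 of them in LL and 62 in LD, exons 28 and 39, 3' UTRs 12 and 15, and 5' UTRs 3 and 7. By comparison, 851 LL peaks and 948 LD peaks were classed as promoter-TSS, the region around the transcription start site (TSS). Peaks that overlap count as 1 site, which gives 151 sites in 135 host genes, of which 132 are protein-coding in the RefSeq gene table.

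Members in LL scored like the list as a whole. Their median score was 26 (interval 23 to 29), and that of all LL peaks was also 26. In LD the members' median was 44 (41 to 47), against 48 over all LD peaks. In the highest of 4 score classes lay 25 LL members (25.5%) and 26 LD members (21.1%), where the classes split each list by score into equal numbers. The number of tags per member ran from 18 to 200 in LL (median 25) and from 32 to 214 in LD (median 42). Peaks in 3' UTRs, 12 in LL and 15 in LD, had the highest median score of the 4 classes in both lists. It was 29 in LL (interval 22 to 46) and 59 in LD (44 to 74). These intervals overlap those of intronic peaks, 22 to 31 in LL and 39 to 53 in LD. Peaks in 5' UTRs had the lowest median, 23 in LL and 34 in LD, from 3 and 7 peaks.

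**Figure D1:**
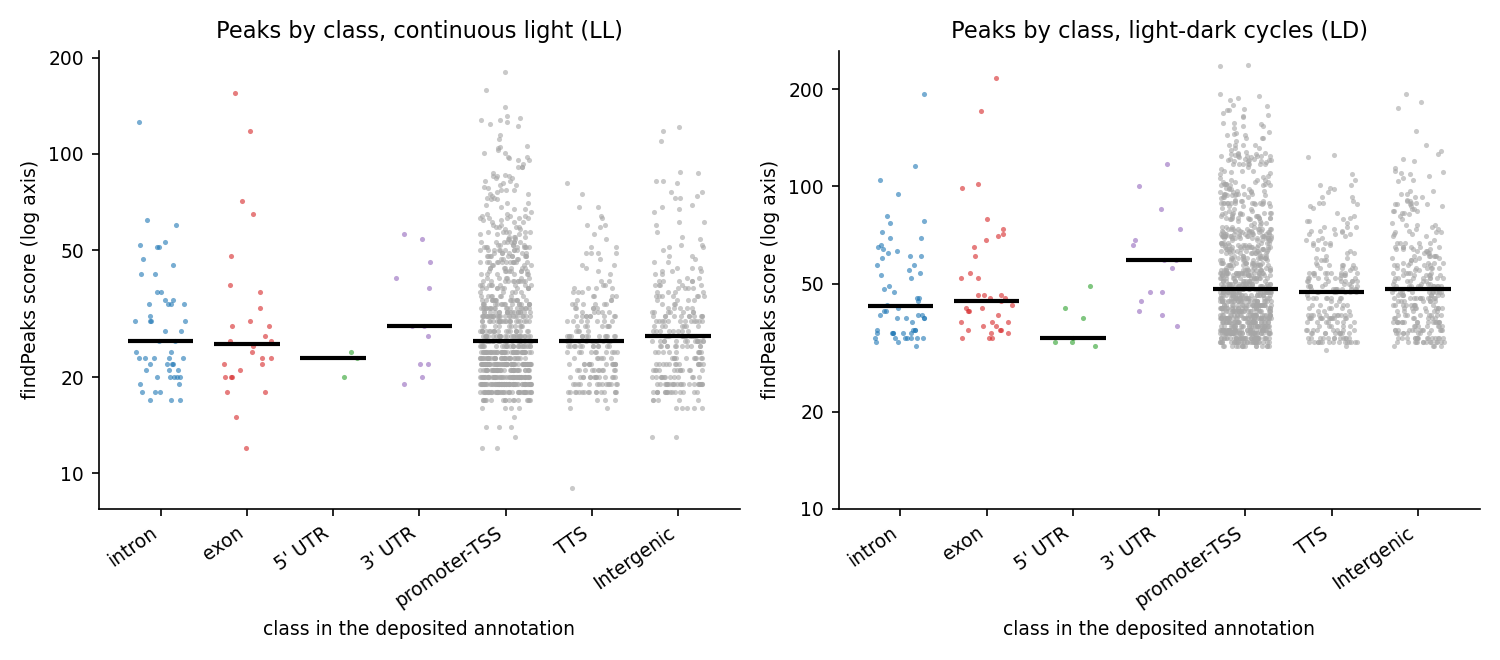
Score of every peak by its class in the deposited annotation, with LL on the left and LD on the right. Each point is a peak, the y axis is the score on a log axis, coloured points lie inside genes, grey points do not, and the black line is the median. The highest member scores are 155 in LL and 217 in LD, both in an exon.

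The 3 highest-scoring members of both lists lay in PIP1C and ACA8. PIP1C (AT1G01620) encodes a plasma membrane aquaporin, a water channel, and held a peak in exon 2 of 4 with the third-highest score of all peaks in both lists. In LL it lay on chromosome 1 from 226414 to 226572, with a score of 155, 200 tags (173 to 230) and a 55.2-fold excess over control. In LD it lay from 226501 to 226625, with a score of 217, 214 tags (186 to 245) and a 38.7-fold excess. A further PIP1C peak lay in exon 1, from 226957 to 227115 in LL (score 118, 137 tags) and from 226973 to 227097 in LD (score 171, 170 tags). The centres of the exon 1 and exon 2 peaks were 543 bp apart in LL and 472 bp in LD, at 266 and 809 bp downstream of the TSS in LL. No peak outside the gene body was annotated or nearest to PIP1C in either list.

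ACA8 (AT5G57110), a calcium pump of the plasma membrane, held the highest score of all intronic peaks. The peak lay in intron 1 of 34, on chromosome 5 from 23117002 to 23117160 in LL, with a score of 126, 160 tags (136 to 187) and a 58.4-fold excess over control. In LD it lay from 23117056 to 23117180, with a score of 194, 192 tags (166 to 221) and a 39.2-fold excess. Its centre was 463 bp downstream of the TSS in LL and 426 bp in LD. A weaker peak of score 24, outside any gene and at -2804 bp from the TSS of ACA8 (negative is upstream), was present in the LL list.

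PIP2;5 (AT3G54820), a second plasma membrane aquaporin, carried its peak in the 3' UTR within exon 4 of 4. It held 30 tags in LL (score 29) and 98 tags in LD (score 100), on chromosome 3 from 20303810 to 20303934 in LD. Of the 13 plasma membrane aquaporins listed, PIP1C and PIP2;5 were the only ones with any peak, and both carried it inside the gene. Of 10 ACA calcium pumps listed, ACA8 alone had a peak, inside the gene. Over all 1478 genes with a peak annotated or nearest to them in LL, 5.95% were hosts, and over 1639 such genes in LD, 6.89% were. With 1 or 2 genes a list, and members chosen with these sites known, nothing is read from the aquaporin and calcium pump counts.

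The 14 host genes grouped here as membrane transport proteins were 9 in LL, 13 in LD and 8 in both. They were grouped after their values were seen and are not a full tally of such hosts. Besides the aquaporins and ACA8 they include KUP6, a potassium transporter, whose intronic peak scored 23 in LL and 42 in LD. CAT6, a cationic amino acid transporter, had 2 peaks in each list, with scores of 20 and 21 in LL and 35 and 54 in LD. MSS1 (AT5G26340), a hexose transporter also known as STP13, had a peak of score 22 in LL and 49 in LD in its gene body and one of 31 and 72 in its promoter.

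By the same kind of grouping, again not a full tally, 19 host genes were transcription factors and co-regulators, 15 in LL, 16 in LD and 12 in both. SPL9, a regulator of the transition from juvenile to adult growth, had a peak in intron 1 of 2 with a score of 52 in LL (62 tags) and 69 in LD (68 tags). AT1G05805, listed in the RefSeq gene table as ABA-responsive kinase substrate 2, had one in intron 1 of 5 with scores of 51 and 64. BEL1 (AT5G41410), a homeodomain protein of ovule development, had one in the 3' UTR with scores of 56 and 85. ABI5, a bZIP factor of the response to abscisic acid, had an intronic peak with scores of 34 and 52. BIM1, a bHLH protein of brassinosteroid signalling, had scores of 23 and 61, and the growth co-activator AN3 had 24 and 60.

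Hormone genes, again grouped after the values were seen and without a full tally, were 12 of the hosts, 8 in LL, 11 in LD and 7 in both. CYP707A2, which breaks down abscisic acid, had 2 intronic peaks in LL, with scores of 34 and 26. The stronger was also present in LD, with a score of 48. PID, the kinase that acts on PIN auxin carriers, had a peak in exon 2 of 2 with scores of 30 and 74. GA3OX1, which makes active gibberellin, had an intronic peak with scores of 22 and 34. Enzymes of the cell wall and cuticle, grouped in the same way, were 10 of the hosts, 3 in LL, 9 in LD and 2 in both. Over all 135 hosts, 47 (34.8%) were in LD alone, 22 in LL alone and 66 in both. No difference between the groups and all hosts was tested.

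Of 30 core clock genes, ELF3 was the single host. ELF3, a component of the evening complex, held a peak of score 21 and 20 tags (12.2 to 30.9) in exon 2 of 4 in LL, 1462 bp downstream of its TSS, beside a stronger one of score 40 in its promoter. The exonic peak had no counterpart in LD, where the nearest peak centre was 1455 bp away. In each list 21 of the 30 clock genes had a peak of some class. None of 15 cold response genes and none of 19 starch metabolism genes was a host in either list, while 6 and 8 of them had a peak of some class in LL, and 8 and 8 in LD. Against 5.95% and 6.89% of all genes with a peak, counts of 0 or 1 host among so few genes are near the background.

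Of 21 light signalling genes, 2 were hosts in both lists, and 6 had any peak, a count too small to set against the 5.95% and 6.89% of all genes with a peak. PIF1 (AT2G20180, listed as PIL5 in the RefSeq gene table), a bHLH repressor of seed germination in the dark, had 2 peaks in its exon 3 of 9. The one classed as 5' UTR scored 24 in LL and 32 in LD, and the one classed as exon scored 24 and 46, with centres 423 bp apart in LL and 413 bp in LD. PIF7, a bHLH factor of shade responses, had a peak in exon 1 of 5 with scores of 25 and 61. Both genes had a further peak downstream of their TSS that was classed with the end of the neighbouring gene, with scores of 34 in LL and 89 in LD at PIF7 and 25 and 44 at PIF1.

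Counted over all gene models, intron 1 held more peaks than any other intron in both lists, but in LD this order rested on models with 1 intron. In LL, 26 of 55 (47.3%, interval 34.7 to 60.2%) were in intron 1, 15 in intron 2, 6 in intron 3, 3 in intron 4 and 5 further on. In LD, 25 of 62 (40.3%, 29.0 to 52.7%) were in intron 1 and 20 in intron 2. Since 7 of the LL peaks and 8 of the LD peaks lay in models with 1 intron, the share was also taken over models of 2 or more introns. There, 19 of 48 LL peaks (39.6%, 27.0 to 53.7%) and 17 of 54 LD peaks (31.5%, 20.7 to 44.7%) were in intron 1. In these LD models intron 2, with 20 peaks, held more than intron 1, with 17, while in LL intron 1 held 19 and intron 2 held 15. First introns made up 16.5% of the 279 introns of these LL models and 15.2% of the 349 introns of the LD models. This pooling gives most weight to models of many introns, up to 34 in LL and 45 in LD. Over all intronic peaks, the median was 3 introns per model in both lists. The share of first introns within each peak's own model was not averaged, so no excess in intron 1 is read. Intron lengths were not used here, so the share of intronic bases in first introns is not part of this comparison.

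Among the intronic peaks of highest score, position varied. UBQ10 (AT4G05320), a polyubiquitin gene, held its peak in its 1 intron, with scores of 37 in LL and 95 in LD, 190 bp downstream of the TSS in LD. BT2 (AT3G48360), a BTB- and TAZ-domain protein, held its peak in intron 4 of 4, with 64 tags in LL (score 62) and 114 tags in LD (score 116). AT1G73480 held one in intron 1 of 6, with scores of 53 and 55, and AT4G34950 one in intron 2 of 2, with scores of 35 and 81. AT4G05150 held 2 peaks in its 1 intron, with scores of 22 and 47 in LL and 72 and 77 in LD.

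**Figure D2:**
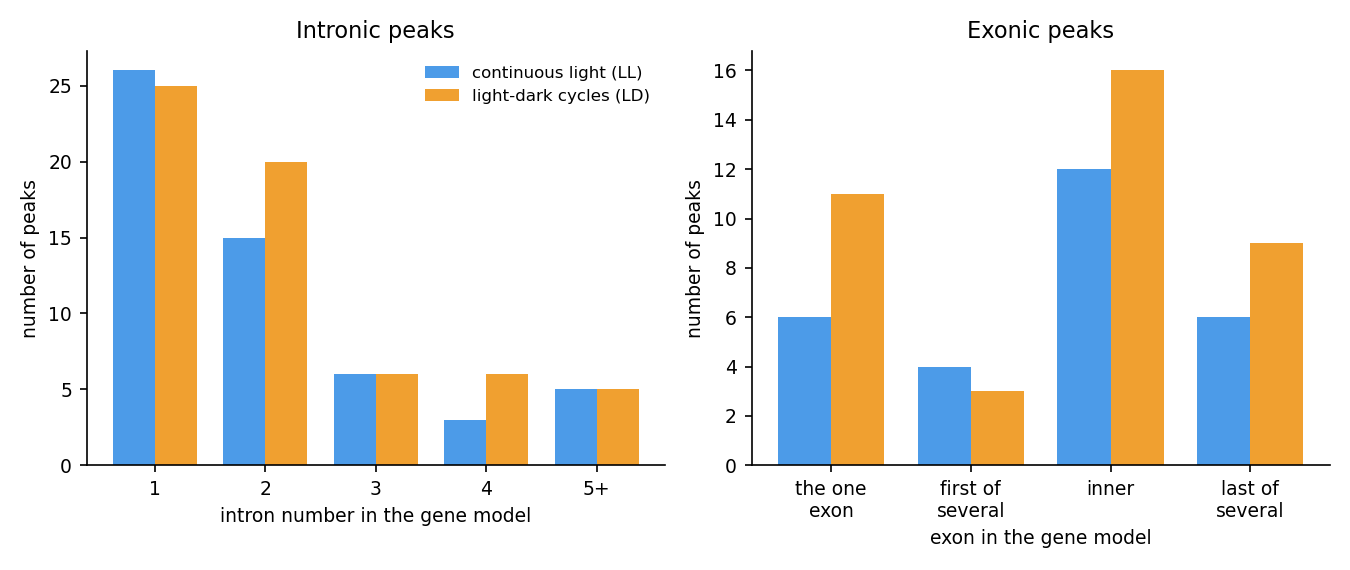
Number of intronic peaks by intron number (left) and of exonic peaks by exon position (right), for LL in blue and LD in orange. Bars are counts of peaks. Intron 1 holds 26 LL peaks and 25 LD peaks, and inner exons hold 12 and 16.

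Exonic peaks lay in all parts of the gene. In LL, 12 of 28 lay in an inner exon, 6 in the last of several, 4 in the first of several and 6 in genes with a single exon. In LD the counts were 16, 9, 3 and 11 of 39. Inner exons thus held 54.5% of LL peaks (interval 34.7 to 73.1%) and 57.1% of LD peaks (39.1 to 73.5%) in models of several exons. Of the exons of these models, 77.2% were inner ones in LL and 73.9% in LD. Without AT1G40104, AT2G08986 and AT2G07981, inner exons held 7 peaks and first or last exons 10 in LL, and 10 and 12 in LD. The inner shares of peaks were then 41.2% (21.6 to 64.0%) and 45.5% (26.9 to 65.3%), and those of exons 59.5% and 58.0%. The share of peaks was below this pooled share of exons with and without these 3 genes. Without these genes, however, the intervals cover the pooled share in both lists. Pooling gives most weight to models of many exons, such as AT2G08986 with 46, while each peak counts once. The inner share of exons within each peak's own model was not averaged, so no depletion of inner exons is read. Exon lengths were not used. The exonic peaks were richer in G and C than the intronic ones. Over a window of 500 bp, the median GC content was 39.1% at LL exonic peaks and 39.7% at LD exonic peaks, against 32.7% at intronic peaks in both lists. At promoter-TSS peaks it was 33.1% in LL and 34.1% in LD. The GC content of exons and introns at large was not taken, so the difference is not read as a trait of CCA1 peaks. The highest values among members, 52.9% in LL and 54.1% in LD, were at the PIF1 peak classed as exon. Among the 5 highest exonic scores of LL was that of AT5G23235, listed in the RefSeq gene table as a transcribed pseudogene, with scores of 48 in LL and 52 in LD. Its LL peak was 111 bp downstream of the TSS of another gene, AT5G23240.

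Several 3' UTR peaks lay closer to the start of another gene than to that of their host. LL held 6 such peaks among 12, and LD held 6 among 15. DOG1 (AT5G45830), a regulator of seed dormancy, held the highest 3' UTR score in LD, 117 with 112 tags, and 54 with 56 tags in LL. The LL peak was at -1046 bp from the TSS of CIPK20, its nearest gene by start. BEL1's peak was nearest to AT5G41420, and that of COW1, a protein of root hair growth (scores 27 and 68), was also nearest to a gene other than COW1. In contrast, the peaks of PIP2;5, AT4G34750 (46 and 66), AT3G48240 (29 and 59) and CYCD1;1, a D-type cyclin (41 and 47), were nearest to the TSS of their own host.

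The 5' UTR peaks were few, and 2 of 3 in LL (66.7%, interval 20.8 to 93.9%) and 2 of 7 in LD (28.6%, 8.22 to 64.1%) were shared. LL held PIF1 (24), AlaAT1, an alanine aminotransferase (23), and AT1G12120 (20). LD held PDE135 (49), AT2G16750 (42), AT1G12120 (39), AT4G23000 (34), ERD15 (33), AT2G47890 (33) and PIF1 (32). PIF1 and AT1G12120 were common to both lists.

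Distance from the TSS was taken for the members whose host was also the nearest gene, 82 of 98 in LL and 106 of 123 in LD. The median was 1132 bp in LL (128 to 8004 bp) and 1140 bp in LD (102 to 8004 bp), and 43.9% and 43.4% lay within 1000 bp. Intronic peaks had medians of 1176 and 1263 bp and exonic peaks of 1130 and 937 bp.

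**Figure D3:**
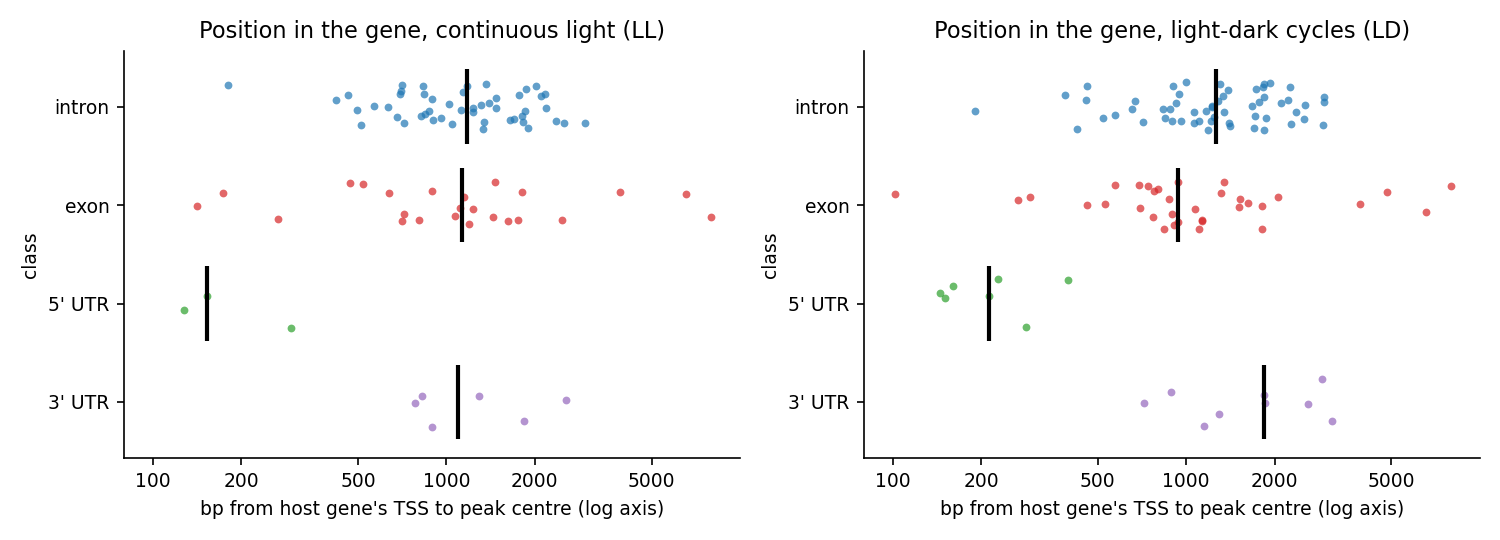
Distance from the start site of the host gene to the peak centre on a log axis, for members whose host is also the nearest gene, by class. Each point is a peak and the black line is the median. The 5' UTR peaks lie within 397 bp, and the medians of intronic and exonic peaks between 937 and 1263 bp.

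Most host genes had no other CCA1 peak outside the gene body. Of 88 LL hosts, 69 (78.4%) had none that was annotated or nearest to them, and of 113 LD hosts, 92 (81.4%) had none. A promoter-TSS peak was annotated to 12 hosts in each list. How often any gene with a peak has a further one is not given here, so these counts are not read as a trait of the hosts. At BT2 the promoter peak was the weaker of the pair, with scores of 22 in LL and 69 in LD against 62 and 116 in intron 4. SVP, a repressor of flowering, had a promoter peak of 25 and an intron 1 peak of 20 in LL. DDF1, an AP2 factor of the CBF family, had a member of score 38 in LL (3' UTR) and 45 in LD (exon) and a stronger intergenic peak, 82 and 105, upstream.

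More than 1 member was found at 8 hosts in LL (18 members) and 7 in LD (17 members). PIP1C, PIF1, AT4G05150, CAT6, AT1G40104 and AT2G08986 had more than 1 in both lists. CYP707A2 and MYB36, a regulator of the Casparian strip, had more than 1 in LL, and CYP86A7 had 2 in LD.

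Whether a site was present in both light regimes was read from overlap of at least 1 bp. In LL, 70 of 98 members (71.4%, interval 61.8 to 79.4%) overlapped an LD peak, against 74.6% of all LL peaks. In LD, 70 of 123 members (56.9%, 48.1 to 65.3%) overlapped an LL peak, against 66.5% of all LD peaks. The LL share is near its background, and the LD share is lower than that of all LD peaks. At all 70 sites the partner lay inside the same host gene, and at 65 it had the same class as well. MSS1, MLO12, AT1G40104, AT2G08986 and DDF1 each had 1 site that changed class, with peak centres 25 to 75 bp apart.

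Sharing rose with score in members as in all peaks. In the highest of 4 score classes 96.0% of LL members and 92.3% of LD members were shared, against 98.1% and 96.3% of all peaks. In the next class they were 82.6% and 75.0%, against 86.3% and 79.1%, and in the one after it 75.0% and 55.9%, against 71.8% and 54.5%. In the lowest class the shares were 34.6% of 26 LL members and 23.1% of 39 LD members, against 42.2% and 36.2% of all peaks. By class, 39 of 62 intronic, 21 of 39 exonic, 8 of 15 3' UTR and 2 of 7 5' UTR members of LD were shared.

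Among unshared members, AT4G16146 had a peak in intron 2 of 6 in both lists, with scores of 51 in LL, the highest of the LL unshared members, and 69 in LD. The centres of these peaks were 160 bp apart, so that they did not overlap. The next in LL were AT3G27240 (30), the serine carboxypeptidase-like gene scpl35 (28), AT5G60710 (28) and CNI1 (27), a ubiquitin ligase of the carbon and nitrogen response. In LD the highest was AT1G02660 (74, 3' UTR), and AT4G16146 was followed by AT2G08986 (65, exon 26), the linker-histone-like gene HON4 (61, intron) and NIA2 (56, 3' UTR), a nitrate reductase. At AT3G27240 and scpl35 the nearest LD peak centres were 7201 and 6770 bp away, and at NIA2 the nearest LL centre was 12608 bp away. The control tags of AT3G27240 in LL (4.6) and of this AT2G08986 peak in LD (12.3) were among the highest 5% of their lists. Their excess over control was 7.61-fold and 5.19-fold.

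**Figure D4:**
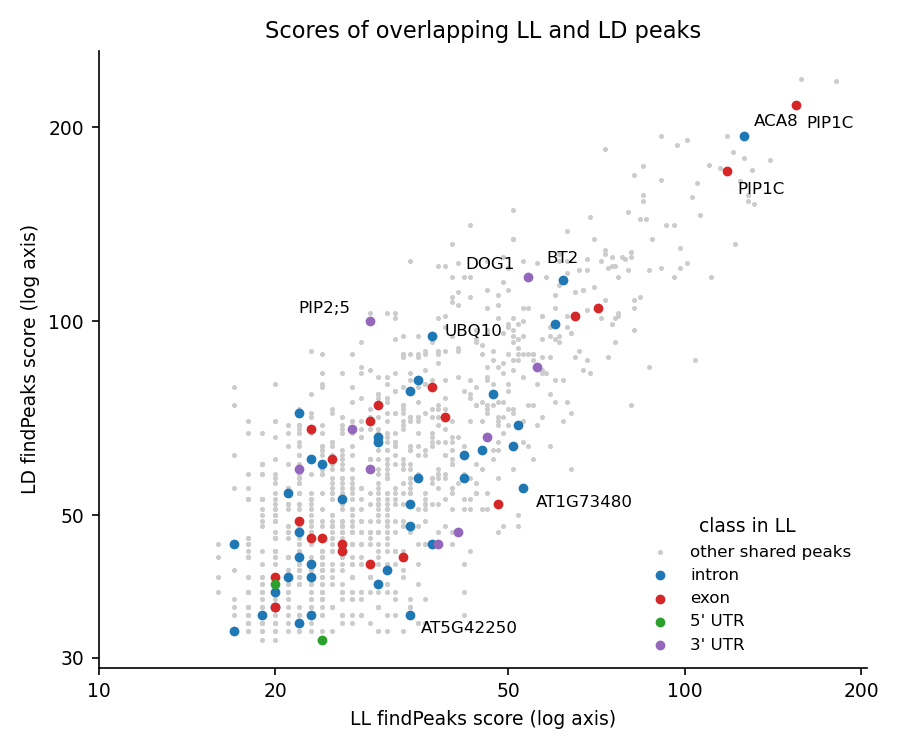
Score of overlapping LL and LD peaks, LL on the x axis and LD on the y axis, both log axes. Each point is a pair, coloured where the LL peak lies inside a gene (70 pairs) and grey otherwise. The PIP1C and ACA8 sites lie at the upper right, and the PIP2;5 site is at 29 in LL and 100 in LD.

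At the 70 shared sites the LD peak held a median of 1.67 times as many tags as the LL peak (0.919 to 3.27), against 1.74 over all 1069 shared peaks. Library totals are not given in the files, so depth and binding cannot be told apart in this ratio. LL peaks are also wider than LD peaks, and the centres of a pair can lie apart, so the tags come from unlike windows. The part of these windows in the ratio, and in its spread among sites, was not tested. Only that spread is described. The tag ratio was 2 or more at 35.7% of member pairs and 33.7% of all pairs. Over all shared peaks it was lower at higher LL scores. Its medians were 1.4, 1.69, 1.95 and 2.11 from the highest to the lowest of the 4 LL score classes. In members these medians were 1.26, 1.63, 2.09 and 1.83. The ratio divides by the LL tags, which the LL score follows, so ratio and score class are not independent. No LD peak had fewer than 31 tags, so LL peaks of few tags could pair only at a high ratio. The fall with LL score is therefore not read as a property of the sites. The ratio was highest at PIP2;5, at 3.27 (interval 2.15 to 5.10), followed by one of the AT4G05150 peaks, at 3.18 (1.95 to 5.40), and GRF6, a 14-3-3 protein, at 2.81 (1.68 to 4.87). It was lowest at AT5G42250, at 0.919 (0.560 to 1.50), and AT1G73480, at 0.930 (0.627 to 1.38). At the strongest sites, all in the highest LL score class, it was low, as in that class at large. It was 1.07 (0.878 to 1.30) at exon 2 of PIP1C, 1.24 (0.985 to 1.57) at its exon 1 and 1.20 (0.968 to 1.49) at ACA8. These pairs were picked by their ratio or their score after the values were seen.

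Some members stood out by their control tags. Among the 5% of peaks with the most control tags were 8 LL members (4.3 or more control tags) and 11 LD members (7.0 or more), and 6 and 7 of them lay in AT1G40104, AT2G08986 and AT2G07981. At AT2G08986 the strongest peak had 92 tags in LL and 100 in LD (scores 71 and 105), with 10.3 and 22.8 control tags. At AT2G07981 the values were 90 and 101 tags (scores 65 and 102), with 9.1 and 15.3 control tags. At AT1G40104 the strongest peak had 74 and 96 tags (scores 60 and 99), with 10.5 and 17.7 control tags. AT2G01008, at one end of chromosome 2, had 8.9 control tags in LD, with scores of 37 and 79. The median fold over control of the members with many control tags was 7.73 in LL and 5.44 in LD, against 12.9 and 13.7 over all members. Over all peaks with many control tags it was 7.43 and 5.84. A low fold follows from this choice, since the fold divides by the control tags. PIP1C and ACA8 had 2.7 to 3.8 control tags in LL and 4.9 to 6.8 in LD. Without the peaks of many control tags, 71.1% of LL and 54.5% of LD members were shared, against 75.1% and 65.4% of all peaks. The part of the control tags in the scores of AT1G40104, AT2G08986 and AT2G07981 was not tested.

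**Figure D5:**
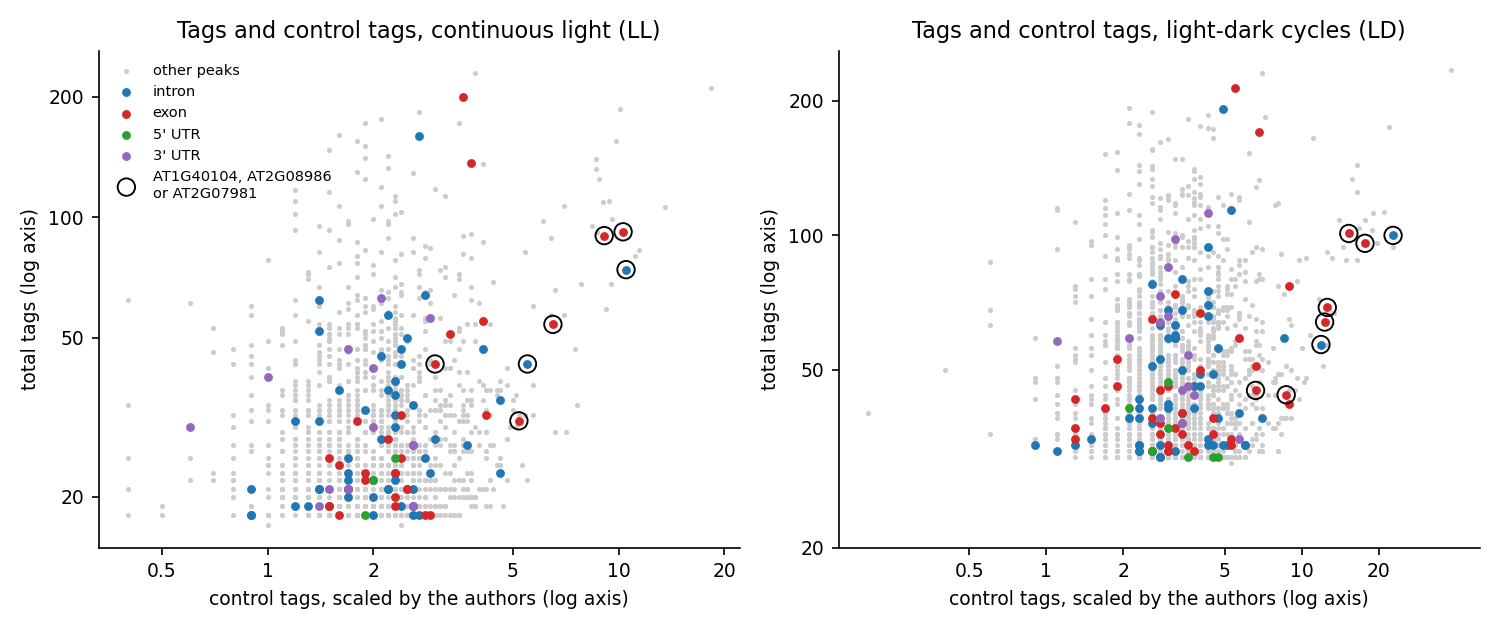
Total tags of each peak against its control tags, which the authors scaled to the precipitated data, both on log axes, for LL (left) and LD (right). Coloured points are members by class, grey points are the other peaks, and rings mark AT1G40104, AT2G08986 and AT2G07981. In LD all but 1 of the ringed points lie at 8.7 to 22.8 control tags.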

How the data were processed

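The submitters' processing notes name the TAIR10 genome and the tools HOMER 4.7, Bowtie2 2.2.1, Trimmomatic 0.33 and CASAVA 1.8. Per the file headers, findPeaks called the peaks, and each list is what an irreproducible discovery rate (IDR) selection kept from the pooled libraries. Not given in the sources used here are the IDR threshold, the treatment of duplicates and the control library. For each peak the authors deposited a count of total tags, control tags scaled to the precipitated data (a signal), a score, a focus ratio (a fraction) and a fold ratio over control and over the local region. The deposited annotation, made with annotatePeaks.pl per the file headers, gave class, intron or exon number, distance to the nearest TSS in bp and the GC fraction of 500 bp windows, printed here as a percentage. Peaks were 158 bp wide in LL and 124 bp in LD. The total tags of the libraries are not given, so depth is known only from tags per peak. Tag ratios of a pair carry exact 95% binomial intervals.

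Overlap, shares, medians and intervals were computed with Python 3.11.15, numpy 2.4.6, pandas 2.3.3 and scipy 1.17.1, and the overlap step was tested on simulated peaks. Figures used matplotlib 3.10.9. The lists pool replicates, so no test was run. Score classes are 4 equal classes of a list by score. Gene names and biotypes came from the RefSeq gene table of TAIR10.1, with no coordinates of it used, and all 135 host genes matched. The files held 0 unused per-sample columns. Members, gene lists and role groups were chosen with earlier results of these data known. Named were the hosts of the 10 highest members of a list, of the 5 highest of each class and of the 5 highest unshared members, and members of the gene lists. Other genes were named after their values were seen. Alternatives covered the overlap rule, the upper 50% by score, equal list sizes, organelle chromosomes, RNA genes, transposable element genes and pseudogenes (by the nearest gene, which keeps the pseudogene host AT5G23235), other peak values and 1 peak per host, and leaving out peaks with many control tags, or 3 genes that hold most of them among members, was added after seeing the data. An LL library of ZT 14 and an input library were not analysed here, and no sequence was read.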

Additional observations from a re-analysis of the deposited data

How the results depend on the processing

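Of 35 alternative values of 10 results (share of the list, share shared, median score, share in intron 1 and share in inner exons, for each list), 33 stayed within the 95% interval of the value given in the report. The exceptions were in LD. Among the upper 50% of peaks by score, members made up 6.23% of the LD list instead of 7.65%, and 66.0% of LD members were shared instead of 56.9%. The share of all LD peaks at that setting is not given here, so 66.0% cannot be set against the 66.5% of the full list. Without peaks of many control tags, an alternative chosen after seeing the data, the shares of the lists were 6.62% in LL and 7.39% in LD. Leaving out AT1G40104, AT2G08986 and AT2G07981, also chosen then, the share in inner exons was 41.2% instead of 54.5% in LL and 45.5% instead of 57.1% in LD. Cutting both lists to an equal length could not change the share of members in the LL list, the shorter one, and gave 68.4% of LL members shared instead of 71.4%. The share of all LL peaks at equal length is likewise not given here. Searches for the evening element and the CCA1 binding site were not run, since no sequence was used here. No paired analysis was possible because the deposited lists pool the replicates of a regime, and for the same reason no replicate could be left out. Peaks of few tags limit what can be said of the weakest members, and a site missing from 1 list may lie below that list's lowest score.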

Other observations

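Other hosts of known function, picked after the values were seen and set against no background, were as follows. NRT1.1, a nitrate transporter and sensor, had a peak in intron 4 of 4 in LD, with a score of 34 and 33 tags (22.7 to 46.3). NIA2 had 54 tags (40.6 to 70.5) in LD at its 3' UTR. The amino acid transporters CAT6 and AAP5 had intronic peaks in LD of scores 54 and 34, and AlaAT1 had a 5' UTR peak of score 23 in LL. LFY, a master regulator of floral identity, had a peak in intron 2 of 2 in LL, with a score of 19 and 19 tags. The intron 1 peak of SVP had 21 tags (13.0 to 32.1) in LL. Members lay on all 5 nuclear chromosomes, with 25, 21, 9, 15 and 28 in LL and 37, 29, 13, 17 and 27 in LD on chromosomes 1 to 5.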
